A study of Mus musculus with 11 samples.

Results

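The 4 control tumors of an E0771 mammary tumor experiment are described here on their own. They were chosen by their sample labels, which place 4 of the 11 tumors of the series in the scram group, and no measured value was used in the choice. The E0771 line was derived from a mammary carcinoma of a C57BL/6 mouse. Before injection the cells had been transduced with a lentiviral shRNA of scrambled sequence and selected with puromycin, and 500000 cells were placed in the fourth mammary fat pad of each C57BL6J mouse. The mice were adult females on the same purified diet. The titles also carry the letters LFD, which the labels do not spell out, and they name no other treatment. The other tumors carried hairpins against Pcx and enter none of the values. The methods give no repeat of the transduction, so the 4 tumors repeat the mouse and not the making of the cell line. RNA was extracted from whole tumors and hybridized to mouse Clariom S arrays, which give 1 log2 signal for each probe set, the group of short probes that reads a gene. One log2 unit is a doubling of signal. Where 4 values stand in a row, they are the log2 signals of scram replicates 1, 2, 3 and 4.

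A tumor grown in a mouse with a working immune system is a mixture. Carcinoma cells lie among macrophages, neutrophils, lymphocytes, blood vessels and collagen-producing fibroblasts of the host, and a tumor in the fat pad can be excised with some of the fat, muscle or skin around it. Carcinoma cells themselves can keep epithelial genes such as E-cadherin and keratins, or express mesenchymal genes such as vimentin and the transcription factors Zeb1 and Twist1 that act in the epithelial to mesenchymal transition. In RNA from a whole tumor these sources are measured together, and fewer cells of a type and less RNA per cell cannot be told apart.

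The arrays held 22206 probe sets, of which 19572 carried a gene symbol (19505 different symbols). Array medians ran from 5.99 to 6.08, and across probe sets the arrays correlated at r between 0.989 and 0.992, a description over genes that are not independent. No pair of arrays was identical. Scram replicate 4 stood apart from the others on the first principal component, which held 42.2% of the variance. It scored 54.62 there, against -24.72, -14.31 and -15.60 for scram replicates 1, 2 and 3. The other tumors were not alike either. The second component (33.7%) set scram replicate 2 (40.30) against scram replicate 3 (-40.02), and the third (24.2%) had scram replicate 1 highest (37.25). Scram replicates 2 and 3 correlated at 0.990, and each pair with scram replicate 4 at 0.989. List means that were lowest in scram replicate 4 are given with and without it. With 1 group there is no comparison to test, and every spread stated is an SD over 4 tumors unless another number is named.

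No detection call was available, so a background reference was taken from 1091 probe sets for olfactory receptors, the odor sensors of the nose. Their 95th percentile lay between 4.27 and 4.41 on the 4 arrays. A share of 57.3% of the probe sets with a symbol (11207 of 19572) exceeded it in all 4 tumors, and 34.1% (6676) exceeded it in none. Per tumor, between 60.7% and 61.8% lay above. Genes below this line are called at background here, which says that their signal was not separable from that of the receptors and not that the transcript was absent.

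**Figure D1:**
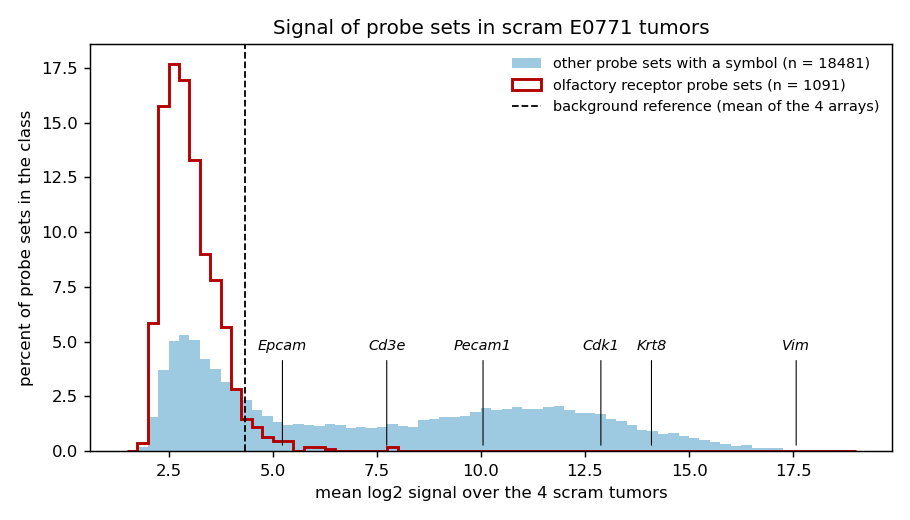
Distribution of the mean log2 signal over the 4 scram tumors (x axis) as the percent of probe sets in each class (y axis), with filled bars for all other probe sets with a symbol, a red outline for the 1091 olfactory receptor probe sets and a dashed line for the background reference. The olfactory receptors gather below the line, the other probe sets spread up to a second broad hump, and 6 genes are marked from Epcam (5.24) at the dim end to Vim (17.57) at the bright end.

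The brightest probe sets read widely expressed genes of translation, the cytoskeleton and other cell functions. Signal also depends on the probes themselves, so the order of genes by signal is no order of transcript abundance. Eef1a1, which brings aminoacyl-tRNA to the ribosome, gave 18.53 ± 0.02 (SD, n = 4). Fth1, the heavy chain of the iron store ferritin, gave 18.21 ± 0.07, and B2m, the light chain of class I histocompatibility molecules, gave 18.02 ± 0.05. Among the 30 brightest genes were 9 of the 63 measured ribosomal proteins, among them Rpl41, Rps23 and Rpl23. The cytoskeleton was represented by Actb, Pfn1, Cfl1, Tuba1c and the intermediate filament Vim. The glycolytic enzyme Gapdh, the endoplasmic reticulum chaperone Hspa5, the metal-binding Mt1, the mitochondrial channel Vdac2 and the interferon-inducible surface protein Ly6e were also present. The 30th gene had a mean of 17.16, and the SDs of these 30 genes ran from 0.01 to 0.18.

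Some genes agreed between the tumors almost to the last decimal. Among the brightest quartile of genes, the 10 of lowest SD were Eef1a1, Rpl41, Actb, the muscle and cytoskeletal tropomyosin Tpm3, the G protein subunit Gnb1, the ribosomal protein Rps20, the proteasome ATPase Psmc6, the ubiquitin-conjugating enzyme Ube2d3, and R3hdm2 and Zfp943. Tpm3 gave 17.15, 17.15, 17.14 and 17.15, which differ by the last decimal of the deposited values. The reference genes commonly used for qPCR averaged 15.47 ± 0.04 over 14 members. Within that list Actb had the lowest SD (17.88 ± 0.02), and Gapdh (17.36 ± 0.05), Rpl4 (17.11 ± 0.05), Rplp0 (15.92 ± 0.04), Ppia (16.92 ± 0.04) and B2m had SDs of 0.04 to 0.05. Tfrc, the transferrin receptor, gave 12.29, 12.40, 12.54 and 13.37, and Gusb, a lysosomal glucuronidase, gave 11.88, 12.19, 11.43 and 12.21. These 2 genes, with SDs of 0.49 and 0.36, spread more than the other 12 of the list.

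Proliferation genes were bright in every tumor. All 21 measured genes of the cell cycle list were above background in all 4 tumors, against 57.3% of all probe sets. Their mean was 13.45, 13.63, 13.20 and 13.51 (13.45 ± 0.18). None of the 21 reached an SD of 0.5, a spread that 16.0% of all probe sets with a symbol reached. Their median SD was 0.22, against 0.19 in the brightest quartile of probe sets, so they were no steadier than bright probe sets in general. Mki67, the antigen that marks cycling cells, gave 13.07, 13.48, 12.65 and 12.98. Cdk1, the kinase of mitotic entry, gave 12.92, 13.02, 12.69 and 12.90. Pcna, the sliding clamp of DNA replication, gave 16.54 ± 0.10, and the spindle checkpoint kinase Bub1 gave 14.54 ± 0.04. The small differences ran together, since 13 of the 21 genes were highest in scram replicate 2 and 19 were lowest in scram replicate 3.

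Genes induced by low oxygen, glycolytic enzymes among them, were all above background. The hypoxia list had 20 of 20 genes above background in all 4 tumors, against 57.3% of all probe sets. Its mean was 12.88, 12.46, 13.10 and 12.32 (12.69 ± 0.36, or 12.81 ± 0.33 without scram replicate 4). Slc2a1, the glucose transporter GLUT1, gave 17.42, 16.98, 17.39 and 16.73, and Ldha, which makes lactate, gave 16.97 ± 0.06. The carbonic anhydrase Car9 lay near the floor at 5.75, 5.51, 6.40 and 4.68. Members that spread more included Lox, the collagen cross-linking lysyl oxidase, at 12.13, 10.94, 12.17 and 9.0, and the mitophagy receptor Bnip3 at 13.25, 12.34, 13.48 and 11.87. Scram replicate 3 was the highest tumor for 15 of the 20 genes and scram replicate 4 the lowest for 13. Car12, another carbonic anhydrase, ran the other way at 6.91, 7.67, 6.85 and 9.40.

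Epithelial genes were sparse. Of 22 measured genes of the epithelial list, 8 were above background in all 4 tumors (57.3% of all probe sets were), 7 in some tumors and 7 in none. Krt8, a keratin of simple epithelia, was the bright exception at 13.92, 14.43, 14.07 and 13.97. Its usual partner in the filament, Krt18, gave 3.14, 4.13, 4.83 and 4.41 and was above background in 2 of the 4 tumors. Keratins Krt19 and Krt7 were above background in 2 tumors and 1 tumor. Cdh1, which encodes E-cadherin, gave 5.62, 5.76, 6.39 and 7.51. Epcam, an epithelial adhesion molecule, gave 4.67, 4.89, 5.16 and 6.22. Both were above background everywhere and both were highest in scram replicate 4. The tight junction gene Ocln was likewise highest there, at 7.52, 5.91, 7.20 and 8.6. The serine protease St14 (7.08 ± 0.58) and its inhibitor Spint1 (10.07 ± 0.29) were also above background in all tumors, as were Ovol1 (5.42 ± 0.46) and Marveld3 (5.03 ± 0.35). At background in all 4 tumors were the claudins Cldn3, Cldn4 and Cldn7, the epithelial splicing regulator Esrp1, the epithelial transcription factors Grhl2 and Ovol2, and the membrane protease Prss8. Elf3, Dsp, Lsr and Esrp2 crossed the background line in some tumors.

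Mesenchymal genes, in contrast, were present almost throughout. Of 22 measured genes, 20 were above background in all 4 tumors, against 57.3% of all probe sets. The list mean was 11.53, 11.48, 11.32 and 10.93 (11.31 ± 0.27, or 11.44 ± 0.11 over the 3 tumors without scram replicate 4). Vim gave 17.66, 17.51, 17.72 and 17.40, and Sparc, a collagen-binding matrix protein, gave 16.12 ± 0.23. Several transcription factors of the epithelial to mesenchymal transition were above background in every tumor. Zeb1, a repressor of E-cadherin, gave 13.05, 12.94, 13.69 and 13.41. Twist1 and Twist2 gave 9.75 ± 0.25 and 10.73 ± 0.14, while Snai1 and Snai2 gave 8.17 ± 0.24 and 6.81 ± 0.38. The receptor kinase Axl (14.78 ± 0.23), the membrane metalloprotease Mmp14 (15.03 ± 0.04) and the growth factor Tgfb1 (15.17 ± 0.11) had SDs below the median of all probe sets with a symbol (0.27). Among probe sets of like mean signal the median SD was 0.152, 0.137 and 0.135 in the same order, which Axl exceeded. Cdh2, which encodes N-cadherin, gave 4.31, 4.69, 3.70 and 3.17 and was above background in 2 tumors, and Foxc2 was at background in all.

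An SD of 0.5 or more was reached by 8 of the 22 mesenchymal genes, against 16.0% of all probe sets. Prrx1, a transcription factor of mesenchyme, gave 13.03, 12.80, 11.69 and 9.31, which is a 13.2-fold range in signal. Mmp2, a gelatinase, gave 10.61, 10.89, 8.69 and 8.45, and Tnc, the matrix protein tenascin C, gave 14.11, 13.69, 12.97 and 12.43. All 3 were lowest in scram replicate 4 and higher in scram replicates 1 and 2 than in scram replicate 3. Lgals1 (16.75 ± 0.22), Tgfbi (15.48 ± 0.53), Fn1 (11.57 ± 0.64), S100a4 (12.11 ± 0.72), Mmp3 (10.53 ± 0.55), Cdh11 (7.70 ± 0.39) and Wnt5a (6.41 ± 0.29) made up the rest of the list. The cell of origin of any of these transcripts was not tested.

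**Figure D2:**
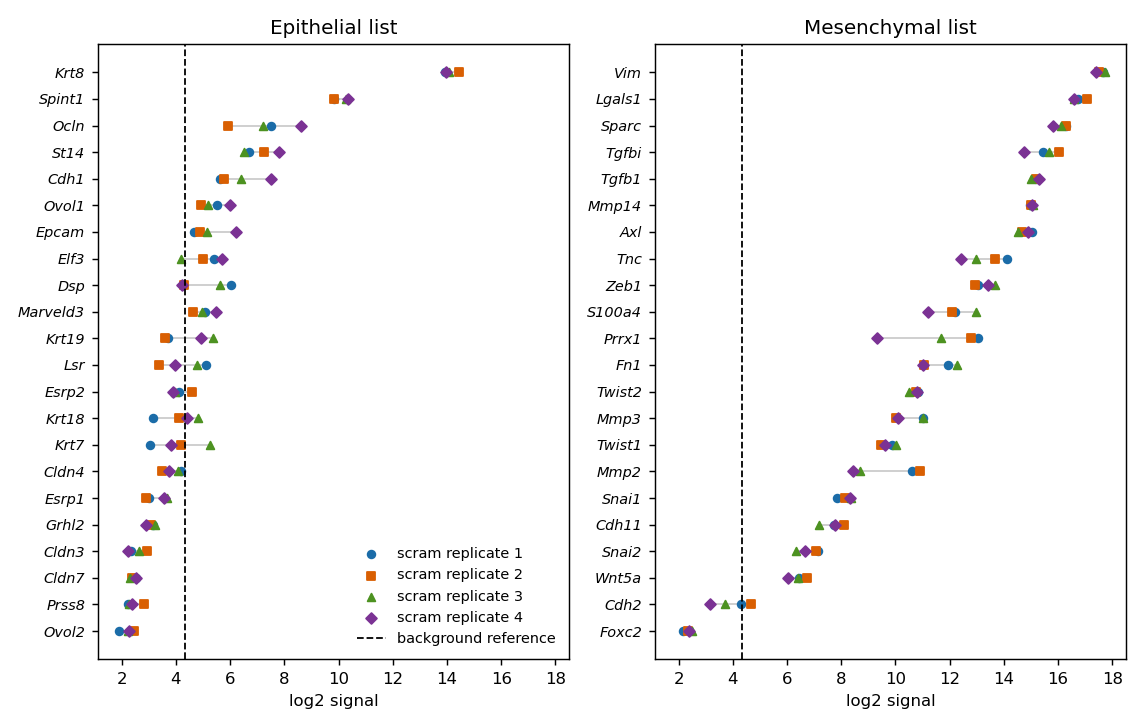
Log2 signal (x axis) of each measured member of the epithelial list (left, 22 genes) and of the mesenchymal list (right, 22 genes) in the 4 scram tumors, 1 symbol per tumor, with a grey line over the range and a dashed line for the background reference. Of the 22 epithelial genes, 8 lie right of the dashed line in every tumor, Krt8 and Spint1 farthest. Of the 22 mesenchymal genes, 20 lie right of it in every tumor, and Prrx1 reaches from 9.31 to 13.03.

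Genes of the mammary lineages were mixed. Of the 7 measured luminal and receptor genes, 3 (42.9%) were above background in all 4 tumors, against 57.3% of all probe sets. On 7 genes this count is no result in itself. The 3 were the receptor kinases Erbb2 (9.69 ± 0.28) and Erbb3 (4.64 ± 0.35) and the secretory transcription factor Xbp1 (14.73 ± 0.06). Erbb3 was close to the background line, at 4.34 in scram replicate 2 against a line of 4.30 there. Esr1 and Pgr, the estrogen and progesterone receptors, and the luminal factors Foxa1 and Spdef were at background in all. Of the 7 measured basal genes, Krt14 gave 8.17, 9.21, 8.99 and 8.16, Krt17 gave 6.85, 8.06, 7.95 and 8.86, and the receptor Egfr gave 9.60 ± 0.47. Trp63, the p63 factor of basal cells, was at background in all 4 tumors. Krt5, the usual partner of Krt14, gave 4.28, 2.11, 2.56 and 2.47, and Oxtr and Cdh3 passed the background line in some tumors. None of the 8 milk and secretory genes was above background in all 4 tumors. Pcx, the pyruvate carboxylase gene that the hairpins of the other tumors target, gave 3.41, 3.89, 4.48 and 4.13 and was above background in scram replicate 3 alone, so that its probe set was near the floor of the array without any hairpin against it.

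Across 33 gene lists the tumors kept one broad shape, with housekeeping, class I antigen presentation, proliferation, hypoxia and leukocyte lists at the top, while the means of the B cell, milk and nerve lists lay below the background line. Scram replicate 4 had the lowest mean in 19 of the 33 lists, and scram replicate 3 the highest in 16. Of the 8 lists whose means had an SD of 0.5 or more, 7 were lowest in scram replicate 4. These 8 were the neutrophil, NK and cytotoxic, mast cell, fibroblast, erythroid, skin keratinocyte, interferon and class II lists, and the class II list was the one that was lowest elsewhere, in scram replicate 1. The skin list lay below the background line in scram replicates 2, 3 and 4 alike (3.77, 3.78 and 3.63), so its lowest tumor says little. The erythroid list rested on 2 measured genes of 8.

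**Figure D3:**
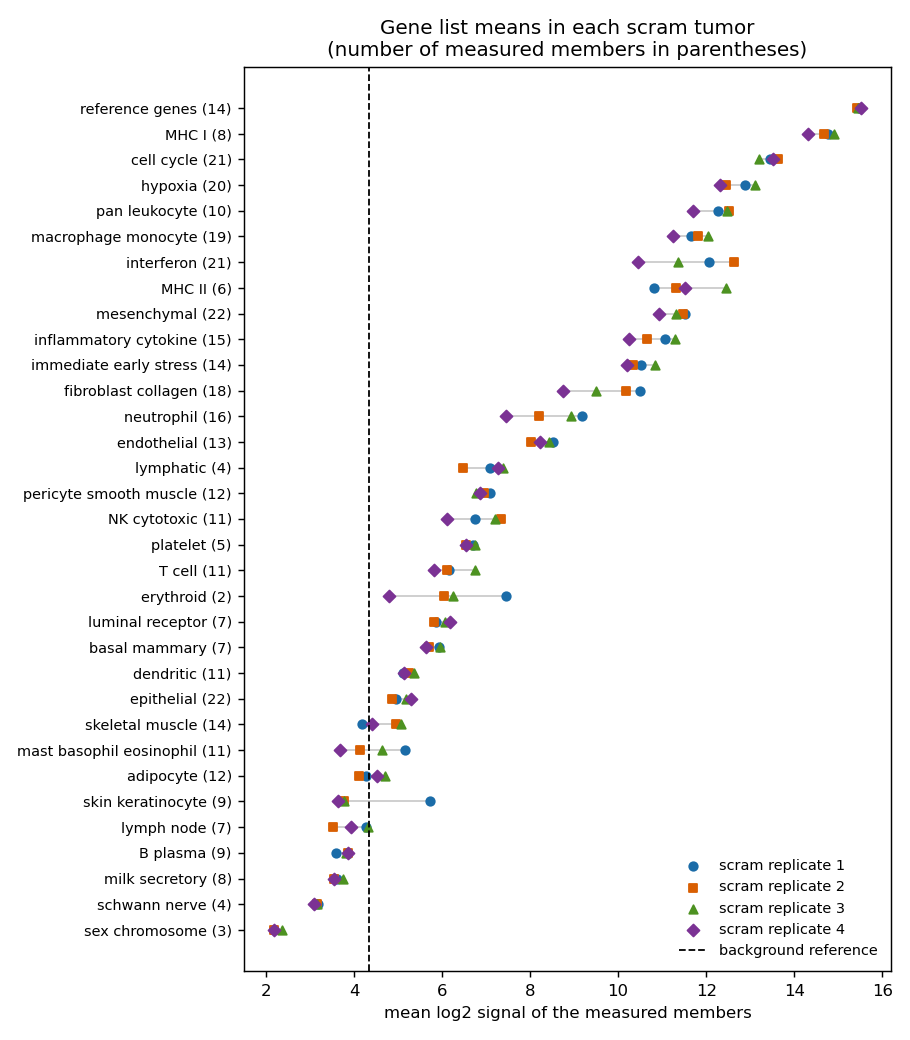
Mean log2 signal of the measured members (x axis) of 33 gene lists (rows, number of members in parentheses) in the 4 scram tumors, 1 symbol per tumor, with a grey line over the range and a dashed line for the background reference. The cell cycle and reference lists have nearly overlapping symbols, the interferon list reaches from 10.46 in scram replicate 4 to 12.64 in scram replicate 2, and the skin keratinocyte list has scram replicate 1 alone at 5.72.

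Genes of leukocytes, macrophages included, were bright. All 10 genes shared by leukocytes were above background in every tumor, against 57.3% of all probe sets. Their mean was 12.27, 12.51, 12.48 and 11.69 (12.24 ± 0.38, or 12.42 ± 0.13 without scram replicate 4). Ptprc, which encodes CD45, gave 12.73, 13.18, 13.21 and 11.93. Of the 19 measured macrophage and monocyte genes, 18 were above background in all 4 tumors, against the same 57.3%. The list mean was 11.67, 11.81, 12.05 and 11.25 (11.69 ± 0.34, or 11.84 ± 0.20 without scram replicate 4). Adgre1, which encodes F4/80, gave 11.56, 11.87, 12.16 and 11.65, and the growth factor receptor Csf1r gave 11.78, 12.31, 12.49 and 11.68. The complement genes C1qa, C1qb and C1qc (12.59 ± 0.44, 13.11 ± 0.43 and 11.64 ± 0.30), the mannose receptor Mrc1 (13.10 ± 0.41) and the lipid carrier Apoe (14.47 ± 0.43) each kept within 0.96 log2 units over the 4 tumors.

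Within the macrophage list a few genes ranged far beyond the rest. Arg1, the arginase that degrades arginine, gave 10.32, 9.95, 12.99 and 7.39, a 48.5-fold range in signal. Ly6c2, a surface antigen of inflammatory monocytes, gave 12.35, 13.38, 11.97 and 10.54. The hemoglobin scavenger receptor Cd163 gave 7.43, 4.25, 6.26 and 4.08 and was therefore at background in scram replicates 2 and 4. Arg1 was highest in scram replicate 3, Ly6c2 in scram replicate 2 and Cd163 in scram replicate 1, so these genes did not share an order. Of the 19 genes, 8 were lowest in scram replicate 1 and 8 in scram replicate 4. Lyz2, the lysozyme of myeloid cells, gave 14.41, 14.30, 14.82 and 15.39 and was highest in scram replicate 4.

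Neutrophil genes showed a graded difference between tumors. The list mean was 9.18, 8.20, 8.93 and 7.45 (8.44 ± 0.78, or 8.77 ± 0.51 without scram replicate 4), and 14 of 16 genes were lowest in scram replicate 4. S100a8 and S100a9, the subunits of calprotectin, gave 13.48, 12.42, 13.52 and 10.93 and 13.65, 12.45, 13.62 and 10.50. Retnlg, a resistin-like protein of neutrophils, gave 11.83, 9.99, 11.58 and 8.41. Cxcr2, the chemokine receptor that draws neutrophils to tissue, gave 10.46, 8.08, 9.82 and 7.21. In these 4 genes scram replicates 1 and 3 were the high pair, scram replicate 2 lay between and scram replicate 4 was lowest. Ngp, a granule protein, gave 9.03, 5.86, 6.58 and 3.31 and was at background in scram replicate 4. The bone marrow granule genes Camp, Mpo and Elane were at background in all tumors. Mmp9, a gelatinase that neutrophils carry and that other cells also make, gave 12.52, 11.90, 13.45 and 14.16 and was thus highest in scram replicate 4.

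Mast cell genes followed a similar order at lower signal. Cpa3, a mast cell carboxypeptidase, gave 7.96, 5.47, 7.21 and 3.80, and the proteases Mcpt4 and Tpsb2 gave 6.68, 5.10, 5.83 and 3.66 and 7.33, 4.35, 5.0 and 4.02. Of the 11 genes for mast cells, basophils and eosinophils, 10 were highest in scram replicate 1. But 6 were at background in all 4 tumors (34.1% of all probe sets were), including the IgE receptor gene Fcer1a and the eosinophil peroxidase Epx. Hdc, the enzyme that makes histamine, was the one gene above background throughout, at 11.75, 10.59, 11.38 and 9.0.

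Lymphocyte genes were present at modest signal. Of 11 measured T cell genes, 10 were above background in all 4 tumors (57.3% of all probe sets were), and 8 were highest in scram replicate 3. Cd3e, a chain of the T cell receptor complex, gave 7.44, 7.78, 8.62 and 7.12. Cd4 gave 7.97, 8.41, 8.02 and 7.64, whereas Cd8a, the coreceptor of cytotoxic T cells, gave 6.47, 5.76, 8.27 and 5.80 and was highest in scram replicate 3 by 1.80 log2 units. Of the 9 measured B cell and plasma cell genes, Cd79a (6.53 ± 0.98) and Cd79b (4.71 ± 0.30) were above background in all 4 tumors. Cd79b was close to the background line, at 4.30 in scram replicate 1 against a line of 4.27 there. Ms4a1, Pax5, Cr2, Blk and Mzb1 were at background in all. Dendritic cell genes were split in the same way. Itgax, which macrophages share, gave 8.82, 9.83, 9.93 and 10.37, and the migration receptor Ccr7 gave 9.71, 9.59, 9.68 and 8.81, but Flt3, Clec9a, Zbtb46 and Cd207 were at background.

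Cytotoxic genes did not move as one. The NK and cytotoxic list had a mean of 6.74, 7.34, 7.20 and 6.10 (6.85 ± 0.56, or 7.09 ± 0.31 without scram replicate 4), with 10 of 11 genes lowest in scram replicate 4. Gzma and Gzmb, the granzyme proteases that kill target cells, gave 8.75, 9.24, 7.40 and 5.24 and 8.19, 9.32, 9.13 and 6.10. The chemokine Ccl5 gave 7.67, 9.31, 7.62 and 6.67. Prf1, the perforin that lets granzymes in, was the exception at 8.82, 8.93, 10.26 and 12.53. Perforin was thus highest in the tumor in which both granzymes were lowest.

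Blood vessel genes were above background and varied in different directions. Of 13 endothelial genes, 12 were above background in all 4 tumors, against 57.3% of all probe sets. The list mean was 8.53, 8.02, 8.42 and 8.22. Pecam1, the adhesion molecule CD31, gave 10.29, 9.98, 10.54 and 9.40, and Cdh5, which encodes VE-cadherin, gave 12.10, 11.29, 12.77 and 11.42. Eng, a coreceptor for transforming growth factor beta, gave 13.93 ± 0.05. Kdr, the main receptor of vascular endothelial growth factor, gave 9.35, 10.09, 8.09 and 8.83, whereas Robo4, a guidance receptor of vessels, gave 6.74, 5.78, 8.17 and 8.41. Scram replicate 2 was thus the highest tumor for Kdr and the lowest for Robo4. The endothelial selectin Sele gave 7.42, 5.43, 9.06 and 9.83. Of the lymphatic genes, Lyve1, which some macrophages also carry, gave 10.96, 9.16, 12.17 and 12.74, and Pdpn, a glycoprotein that fibroblasts share, gave 9.09 ± 0.54. The receptor Flt4 gave 4.90, 4.80, 4.24 and 4.67 and was above background in 3 tumors, and Prox1, the factor that defines lymphatic endothelium, was at background in all. Among pericyte and smooth muscle genes Pdgfrb gave 10.96 ± 0.37 and Acta2, smooth muscle actin, gave 12.74, 12.93, 13.25 and 11.63. Rgs5 gave 8.08, 7.17, 7.14 and 5.53, while Mcam was highest in scram replicate 4 at 10.63, 9.90, 10.10 and 11.63.

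The mean of the fibroblast list spread further than the means of the vessel lists. Its SD was 0.77, against 0.23 for the endothelial and 0.14 for the pericyte list. Single members differed less, with a median SD of 0.93, 0.59 and 0.65 in the same order. An SD of 0.5 or more was also seen in 9 of 13 endothelial and 8 of 12 pericyte genes. The fibroblast list mean was 10.49, 10.19, 9.50 and 8.75 (9.73 ± 0.77, or 10.06 ± 0.51 without scram replicate 4). An SD of 0.5 or more was seen in 17 of its 18 genes, against 16.0% of all probe sets, and an SD of 1 or more in 8, against 2.1%. Col1a1 and Col1a2, the chains of type I collagen, gave 13.44, 13.69, 12.43 and 11.39 and 12.80, 13.21, 11.45 and 10.18. Col3a1, type III collagen, gave 14.05, 13.99, 13.64 and 10.93, a value for scram replicate 4 that lay 2.71 log2 units below the next. Dcn, the collagen-binding proteoglycan decorin, gave 14.03, 13.24, 11.42 and 10.84, and its relative Lum gave 10.46, 10.10, 8.11 and 7.50. In Dcn and Lum scram replicate 3 sat with scram replicate 4, whereas in Col3a1 it sat with scram replicates 1 and 2. Over all 42 measured collagen chains, a family drawn up after the values had been seen, the mean was 6.35, 6.44, 6.14 and 6.06. An SD of 0.5 or more was reached by 15 of these chains, against 16.0% of all probe sets. Scram replicate 4 was highest for 15 chains and lowest for 19, and scram replicate 2 was highest for 16. At background in all 4 tumors were 12 of the 42 (34.1% of all probe sets were). Postn, a matrix protein of activated fibroblasts, gave 13.50, 13.92, 12.07 and 11.32. Scram replicate 4 was lowest for 13 of the 18 genes of the list, but Col6a3, a chain of type VI collagen, was highest there at 12.52, 13.45, 13.24 and 13.63. Dpt and Pi16, genes of adventitial fibroblasts, gave 7.67, 4.29, 6.98 and 4.54 and 6.80, 4.43, 5.92 and 3.67, with scram replicates 1 and 3 as the high pair.

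Secreted proteins that fibroblasts are known to make were among the 40 genes of highest SD. Cxcl12, a chemokine of stromal cells, gave 11.16, 8.79, 8.19 and 5.94. Apod, a lipid carrier, gave 10.60, 11.47, 8.04 and 6.34. Sfrp2, a secreted modulator of Wnt signals, gave 9.02, 10.05, 7.10 and 5.50. Each of the 3 was lowest in scram replicate 4 and above background in all 4 tumors.

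Genes of the tissues next to the gland were mostly low, but some were above background in particular tumors. Of 12 adipocyte genes, Fabp4, which macrophages and vessels share, and Lipe were above background in all 4 tumors. Adipoq, the fat hormone adiponectin, gave 3.60, 2.87, 5.84 and 5.71, and Plin1, a coat protein of fat droplets, was at background in all. Cidec, another droplet protein, gave 4.18, 3.51, 5.65 and 4.09, and Car3, a carbonic anhydrase abundant in fat and muscle, gave 5.36, 4.0, 8.47 and 6.97. Of 14 skeletal muscle genes, 3 were above background in all 4 tumors (57.3% of all probe sets were), 8 in some and 3 in none. In scram replicate 3, 9 of the 14 were highest, among them the muscle actin Acta1 at 6.17, 5.77, 7.74 and 5.50. The fast myosin Myh4 was highest in scram replicate 2, at 3.33, 6.43, 3.91 and 3.28. The developmental myosin Myh8, which is not in the list, was also highest there, at 4.12, 6.95, 5.80 and 2.67. Krt10 and Krt1, the keratins of the upper epidermis, gave 10.12, 3.70, 3.96 and 3.64 and 9.39, 3.86, 3.78 and 3.86. Hrnr, a protein of the cornified layer, gave 7.14, 2.86, 2.49 and 2.28. Scram replicate 1 was thus the single tumor with these 3 genes above background, and it was highest for 8 of the 9 measured genes of the skin list. The terminal gene Lor and the keratin Krt2 were at background there as well.

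Interferon-inducible genes varied together between the tumors, with the highest median SD of members (1.12) among the 33 lists. All 21 measured genes were above background in all 4 tumors, against 57.3% of all probe sets. An SD of 0.5 or more was seen in 20 of them, against 16.0%, and an SD of 1 or more in 12, against 2.1%. The list mean was 12.05, 12.64, 11.36 and 10.46 (11.63 ± 0.94, or 12.02 ± 0.64 without scram replicate 4). Type I interferon is known to act mainly through the interferon-stimulated response element (ISRE) in promoters, and interferon gamma mainly through the GAS element. Many of these genes respond to both.

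The genes differed in which tumor was highest. Of the 21 genes, 16 were highest in scram replicate 2 and 5 in scram replicate 3, while 19 were lowest in scram replicate 4. Rsad2, the antiviral enzyme viperin, gave 11.60, 12.66, 9.69 and 9.24, a 10.7-fold range in signal. Ifit1, which binds foreign RNA, gave 12.03, 12.82, 10.04 and 9.85, and the ubiquitin-like Isg15 gave 10.27, 10.75, 8.79 and 8.45. Irf7, a factor that amplifies interferon production, gave 13.80, 14.59, 12.68 and 11.91, and Usp18, which removes Isg15 from proteins, gave 12.44, 13.39, 10.62 and 10.20. In these genes scram replicates 1 and 2 were the high tumors and scram replicates 3 and 4 the low ones.

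The remaining 5 genes, highest in scram replicate 3, did not share 1 order below it. Gbp2, a guanylate-binding protein, gave 14.11, 13.59, 14.79 and 11.88. Gbp3 gave 13.50, 13.54, 13.92 and 11.92, and Irgm1, a GTPase of host defense, gave 14.07, 14.38, 14.40 and 12.99. Cxcl9, a chemokine for T cells, gave 12.75, 13.17, 14.21 and 12.86. In Irgm1 scram replicates 2 and 3 lay almost level, and in Cxcl9 scram replicate 1 was lowest. All 6 measured guanylate-binding protein genes were highest in scram replicate 3 and lowest in scram replicate 4, and all 6 measured Ifit genes were highest in scram replicate 2. Both families were drawn up after the values had been seen, and near-identical copies in them may share probes.

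Promoter sequence is shown for 3 genes highest in scram replicate 2 and 3 highest in scram replicate 3, because both kinds occur among genes whose promoters hold the same response element. The ISRE was searched for as GAAANNGAAA, or TTTCNNTTTC on the other strand, in the 250 bases before the start of transcription (RefSeq, GRCm38.p6). It was found in 12 of the 17 interferon-list genes with a promoter sequence and in 3.47% of the promoters of all 15691 measured genes. The GAS element, TTCNNNGAA on either strand, was found in 4 of the 17 and in 7.76% of all. A match is a description of letters and not a binding site or a cause. Capitals mark every ISRE match, overlapping ones joined, on the strand of the gene. Rsad2 (chr12:26456528-26456607, minus strand), Ifit1 (chr19:34640750-34640829, plus strand) and Isg15 (chr4:156200852-156200931, minus strand) were highest in scram replicate 2. Gbp2 (chr3:142620569-142620648, plus strand), Gbp3 (chr3:142559964-142560043, plus strand) and Irgm1 (chr11:48871421-48871485, minus strand) were highest in scram replicate 3.
Rsad2: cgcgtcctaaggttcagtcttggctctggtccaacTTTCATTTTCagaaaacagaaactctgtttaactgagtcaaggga
Ifit1: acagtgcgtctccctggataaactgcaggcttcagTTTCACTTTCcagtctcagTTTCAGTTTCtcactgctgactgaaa
Isg15: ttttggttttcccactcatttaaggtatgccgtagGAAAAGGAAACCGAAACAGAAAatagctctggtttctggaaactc
Gbp2: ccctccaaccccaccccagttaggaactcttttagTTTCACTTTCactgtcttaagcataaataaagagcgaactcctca
Gbp3: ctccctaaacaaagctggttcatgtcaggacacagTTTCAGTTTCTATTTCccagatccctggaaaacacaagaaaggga
Irgm1: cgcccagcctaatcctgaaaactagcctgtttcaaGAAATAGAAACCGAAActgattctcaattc

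Antigen presentation genes divided by class. The class I list had a mean of 14.76, 14.67, 14.89 and 14.32 (14.66 ± 0.24, or 14.77 ± 0.11 without scram replicate 4). In scram replicate 4, 7 of its 8 genes were lowest, and none of the 8 had an SD of 0.5 or more, against 16.0% of all probe sets. Their median SD was 0.28, against 0.19 in the brightest quartile of probe sets, so they were no steadier than bright probe sets in general. H2-K1, a class I heavy chain, gave 15.96 ± 0.12. Tap1, a peptide transporter, gave 14.96, 14.83, 15.19 and 14.26, and the immunoproteasome subunit Psmb9 gave 12.94, 12.56, 13.48 and 12.45. Class II genes, which macrophages, dendritic cells and B cells express, gave 10.83, 11.31, 12.44 and 11.51, and 5 of the 6 were highest in scram replicate 3. H2-Aa gave 11.96, 13.05, 13.95 and 13.08, and H2-DMa, which helps to load peptides, gave 9.08, 9.10, 11.17 and 9.06. Their transactivator Ciita varied less, at 6.10, 6.23, 6.63 and 6.65.

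Inflammatory mediators were present in all tumors and differed widely for a part of them. Il1b gave 13.30 ± 0.30 and the monocyte chemokine Ccl2 gave 14.92 ± 0.33. Nos2, the inducible nitric oxide synthase, gave 12.25, 11.31, 13.68 and 10.21 and, like Arg1, was highest in scram replicate 3 and lowest in scram replicate 4. Ptgs2, the cyclooxygenase of prostaglandin synthesis, gave 10.25, 8.34, 10.23 and 7.56, and the neutrophil chemokine Cxcl2 gave 13.54, 11.99, 13.58 and 11.41. In both, scram replicates 1 and 3 were the high pair, as they were for the neutrophil genes. Cxcl5, another neutrophil chemokine, gave 9.0, 5.66, 6.41 and 4.85, and Tnf gave 9.73, 11.68, 10.06 and 10.77. Immediate early genes, which cells induce soon after a stimulus, gave list means of 10.52, 10.34, 10.83 and 10.21 (10.48 ± 0.27, or 10.56 ± 0.25 without scram replicate 4). Fos gave 8.91, 8.37, 8.92 and 7.21, whereas Jun gave 13.56 ± 0.09.

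Over all probe sets with a symbol the median SD was 0.27, and 2.1% (411) had an SD of 1 or more. Spread depended on signal. The median SD was 0.25 in the dimmest quartile of probe sets, 0.36 and 0.31 in the middle ones and 0.19 in the brightest. By the brightest probe set of each symbol, 409 genes had an SD of 1 or more, of which 213 were lowest in scram replicate 4, while their highest values were shared among the tumors as 99, 91, 118 and 101.

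**Figure D4:**
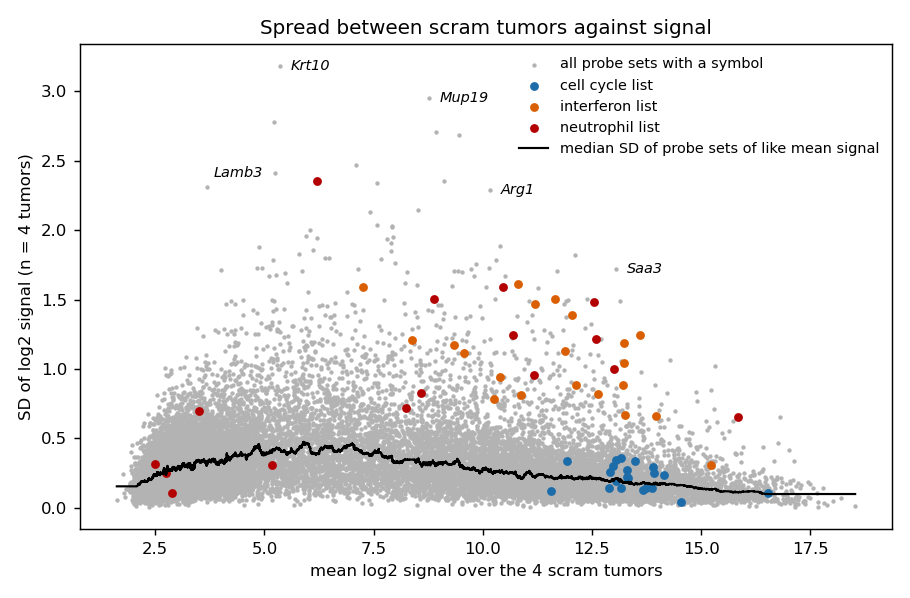
SD of log2 signal over the 4 scram tumors (y axis) against mean log2 signal (x axis) for all 19572 probe sets with a symbol (grey), with the cell cycle, interferon and neutrophil lists in color and a black line for the median SD of probe sets of like mean signal. Cell cycle genes lie close to the black line, most interferon and neutrophil genes lie above it, and Krt10 has the highest SD at 3.18.

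The 40 genes of highest SD, from 3.18 down to 1.72, came from several unlike groups. Besides the skin keratins, the major urinary proteins Mup19, Mup22, Mup2 and Mup9, pheromone carriers made mainly by the liver, stood out. Mup19 gave 9.45, 4.42, 10.59 and 10.63, and Mup22 gave 9.41, 4.97, 10.80 and 10.54. Scram replicate 2 was low in all 4 of these, whose probe sets may read near-identical copies. Serpinb2, an inhibitor of plasminogen activators, gave 11.83, 7.07, 11.74 and 7.19. Lbp, which binds bacterial lipopolysaccharide, gave 8.64, 5.28, 6.37 and 3.90, and the acute phase genes Saa3 and Serpina3n gave 15.02, 13.41, 12.93 and 10.84 and 10.11, 5.19, 8.03 and 6.38. These 3 acute phase genes were highest in scram replicate 1. The stefin genes Stfa2l1 and Cstdc4, protease inhibitors of a cluster with near-identical copies, gave 10.89, 9.25, 11.60 and 7.67 and 11.55, 9.34, 12.02 and 8.27. The alarmin Il33 (8.13, 6.09, 10.48 and 6.92), the B cell chemokine Cxcl13 (8.36, 4.78, 9.57 and 7.61) and the potassium channel subunit Kcnmb1 (10.02, 9.27, 13.16 and 9.14) were highest in scram replicate 3.

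Genes highest in scram replicate 4 formed a further group. Lamb3, a laminin chain of epithelial basement membranes, gave 2.87, 4.67, 4.82 and 8.61, a gap of 3.79 log2 units to the next tumor. The cytokine Lif gave 6.12, 6.57, 8.98 and 9.93, the fructose transporter Slc2a5 gave 6.16, 9.38, 6.21 and 9.96, and the membrane chemokine Cx3cl1 gave 4.36, 3.08, 6.54 and 6.80. Lmo7, an adaptor at cell junctions, gave 11.44, 9.85, 13.35 and 13.80. Scram replicate 3 was close to scram replicate 4 in Lif, Cx3cl1 and Lmo7, while in Slc2a5 it was scram replicate 2 that came close. The protease gene Prss50 gave 4.75, 5.04, 4.82 and 8.52, the protocadherin Cdhr5 gave 4.38, 4.65, 4.38 and 7.44, and the bicarbonate transporter Slc4a9 gave 2.95, 3.14, 3.33 and 6.55, with scram replicate 4 alone high in each.

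**Figure D5:**
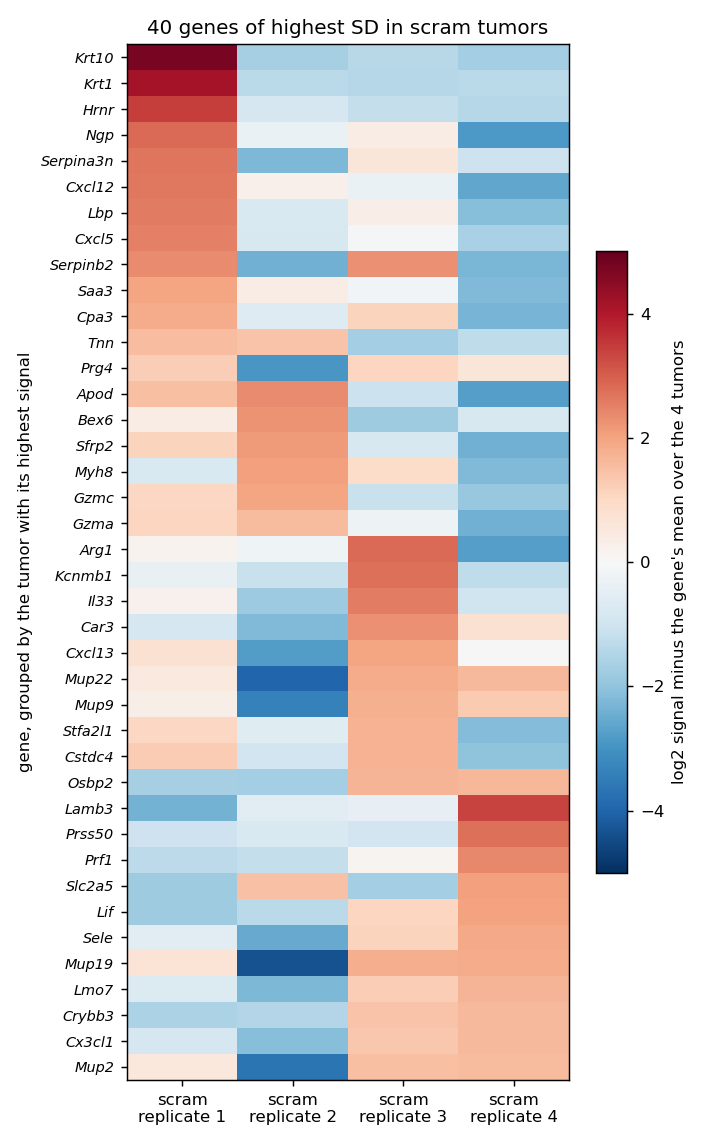
Difference of log2 signal from the gene's mean over the 4 scram tumors (color, red above and blue below the mean) for the 40 genes of highest SD (rows, grouped by the tumor with the highest signal) in scram replicates 1 to 4 (columns). Krt10, Krt1 and Hrnr are red in scram replicate 1 alone, the Mup genes are blue in scram replicate 2, and Lamb3 and Prss50 are red in scram replicate 4.

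Genes in which 1 tumor lay apart from the other 3 were counted as well. A tumor was called apart in a gene when its gap to the nearest other tumor over the whole range exceeded Dixon's 95% critical value, which chance exceeds in about 1 group in 20. Among 12896 probe sets above background in at least 1 tumor, 5.42% (699) had a tumor apart, a share close to that 1 in 20, so the count is no result in itself. They were 106, 164, 169 and 260 in scram replicates 1, 2, 3 and 4, and scram replicate 4 had 80 of the 175 with a range of at least 1 log2 unit. In scram replicate 2, Stra6, a retinol transporter, stood high at 4.62, 7.13, 4.36 and 4.56, and Prg4, the lubricin of joint fluid, stood low at 7.19, 3.04, 7.01 and 6.56. In scram replicate 3, Ccr8, a chemokine receptor of T cells, stood low at 5.21, 5.20, 3.43 and 5.19.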

How the data were processed

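Whole-tumor RNA was made into labelled cDNA and hybridized to Clariom S plates by the authors, who used Transcriptome Analysis Console software. They deposited log2 signals to 2 decimals for 22206 probe sets, already normalized. The summarization algorithm is not given in the sources used here. The number of arrays limits the precision. No scan date was given, so no batch could be examined.

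The values of the 4 scram tumors were used as deposited. Symbols came from the platform annotation, 2634 probe sets have none here, and the brightest probe set stood for a symbol with several. Lists, members and the background reference were chosen with earlier results of these data known. Of 424 list entries in 33 lists, 386 were measured, and 10 gene families were added after values had been seen. The named genes were the 30 brightest, the 40 of highest SD among those above background in a tumor, the 10 of lowest SD in the brightest quartile, the 5 farthest from the other tumors in each tumor and direction, all members of the epithelial, basal, luminal, mesenchymal and reference lists, the first 4 and the most variable member of each other list, and Pcx. Further list members were named for their values. Means, SDs, principal components and Dixon gaps were computed in Python 3.11.15 with NumPy 2.4.6 and pandas 2.3.3 and checked on simulated data. Alternatives were quantile normalization, median centring, other background references, other filters, other list summaries and leaving out each tumor.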

Additional observations from a re-analysis of the deposited data

Results flagged for a closer look

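Of 326 genes examined, those set by the naming rule or given in the text, 24 had 1 tumor whose gap to the next exceeded Dixon's 95% critical value, as had 2 of the 33 list means. Chance flags about 1 in 20 groups of this size, and part of the genes were named for such gaps. Scram replicate 1 stood high in the skin keratinocyte list mean (5.72), in the epidermal genes Krt10 (10.12), Krt1 (9.39) and Hrnr (7.14) and in the casein Csn1s1 (4.91). It also stood high in Rpl41 (17.68) and Rpl31 (17.26), where the gap is a few hundredths of a log2 unit at most. Scram replicate 2 stood high in Stra6 (7.13) and low in Prg4 (3.04) and the chemokine Ccl21a (4.02). Scram replicate 3 stood high in H2-DMa (11.17), the transporter Atp13a4 (6.30) and the granzyme Gzmk (4.52). It stood high too in the progesterone receptor Pgr (4.32), in Uty (3.03) and in the sex chromosome list mean (2.38), all 3 at background. It stood low in Ccr8 (3.43), the centriole gene Ccp110 (5.56) and, by the last decimal, Tpm3 (17.14). Scram replicate 4 stood high in Cdhr5 (7.44), Prss50 (8.52), Slc4a9 (6.55) and Obp2a (7.42), and low in Ccr7 (8.81), the leukocyte gene Cytip (8.19) and Col3a1 (10.93).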

How the results depend on the processing

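Quantile normalization and median centring changed no count or median SD by as much as 1.5 times or a replicate spread. Under quantile normalization 33 of 33 lists kept their highest tumor and 32 their lowest, and under median centring 31 and 29. The share of variance on the first component ran from 53.4% to 60.8% over 3 tumors when each tumor was left out in turn, the median SD from 0.24 to 0.27 (0.258 for probe sets above background in all 4 tumors), and the probe sets with an SD of 1 or more from 302 without scram replicate 4 to 541. Counting SDs by their excess over the median of probe sets of like signal left 126 probe sets at 1 or more. Requiring a range of 1 log2 unit left 175 probe sets with a tumor apart. Of the 40 most variable genes, 35 were the same by excess SD, 39 under either scaling and 23 to 31 after leaving out a tumor. Taking the median over members moved 16 of the 33 list means by more than their SD between tumors, and keeping only members above background moved 16 and left 16. Leaving out 1 of 4 tumors cannot move a mean by that much. Probe sets above background in all tumors numbered 10124 with the 99th percentile of the olfactory receptors, 10482 with vomeronasal receptors and 12491 with unnamed probe sets counted. No paired analysis was possible because only 1 group of tumors was used. Signal near background limits what can be said of dim genes, and no detection calls were used.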

Other observations

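Host genes that belong to no solid part of the tumor were also read. Pf4, a platelet chemokine that macrophages can also express, gave 12.67, 12.88, 13.01 and 12.92, and the platelet genes Itga2b (7.08 ± 0.48) and Ppbp (6.46 ± 0.37) were also above background in all 4 tumors, while Gp9 and Treml1 were at background in all. Alas2, the heme synthesis enzyme of red cell precursors, gave 8.55, 6.46, 7.27 and 5.26, and Slc4a1, the anion exchanger of red cells, gave 6.34, 5.63, 5.24 and 4.33. The Y-linked genes Kdm5d, Uty and Eif2s3y were at background in all 4 tumors. Sox10 and S100b, genes of Schwann cells, were at background as well.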
